A study of Mus musculus with 24 samples.

Results

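Fatty acid oxidation was represented by 34 genes of mitochondrial and peroxisomal β-oxidation, chosen by name from the 24825 genes listed per library. They were read by RNA-seq in 24 libraries of ingSVF cells, which are adherent cells grown from the stromal vascular fraction (the non-adipocyte cells) of inguinal white adipose tissue. The cells came from mice carrying a floxed allele of Nfia, the gene of the transcription factor nuclear factor I-A, and had been immortalized with the large T antigen of simian virus. Because every group derives from such an immortalized and mixed cell preparation, none of them is an adipocyte taken from a mouse. 4 cell types were made by retroviral infection. ctrl cells received empty vector, Cre cells received Cre recombinase, Cre + NFIA cells received, besides Cre, full-length NFIA with a FLAG tag, and the mutant cells, Cre + NFIA Δpro#3, received a FLAG-tagged NFIA that lacks its C-terminal segment. Each was sequenced before differentiation (day 0) and after it (day 7), with 3 libraries per group. All day 7 groups had been induced with the same cocktail of isobutylmethylxanthine, indomethacin, dexamethasone, insulin, T3 and rosiglitazone, of which insulin, T3 and rosiglitazone were kept on afterwards. Since rosiglitazone is an agonist of PPARγ, every day 7 value was obtained under that drug. Whether the 3 libraries of a group came from separate cultures is not stated, so p-values measure the spread between these libraries, which may be technical.

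In β-oxidation, long-chain fatty acids enter the mitochondrial matrix as carnitine esters, and the acyl-CoA is then shortened from its carboxyl end by repeated rounds of dehydrogenation, hydration, a further dehydrogenation and thiolytic cleavage. Electrons from the first step pass through electron transfer flavoprotein to ubiquinone. Very long-chain and branched acids are first shortened in peroxisomes, where the first oxidation yields hydrogen peroxide. Brown and beige adipocytes burn fatty acids by this route to make heat, and many of the genes are known targets of the PPAR family of nuclear receptors.

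Depth ran from 7732829 to 14622189 reads per library. The gene-level value of Nfia, which sums reads over all exons while only a part of the gene is floxed, does not check the deletion. Nfia stood at 9.55 ± 0.36 FPKM (reads scaled to gene length and to the total of the library) in ctrl and at 10.1 ± 0.59 FPKM in the libraries labelled Cre at day 7 (SD, n = 3 each), and the 2 groups differed by 0.07 on the log2 scale (limma, adjusted p = 0.43). The study reports efficient recombination by genomic PCR and a nearly complete loss of NFIA mRNA and protein in Cre cells. Those measurements were not analysed here, so directions drawn from Cre below rest on the label. With retroviral NFIA the level of Nfia reached 90.0 ± 6.7 FPKM, and with the mutant 102 ± 8.4 FPKM, values in which reads of the vector and of the gene itself cannot be told apart. Summed over 12 adipocyte markers, expression at day 7 was 23032 to 26742 FPKM in ctrl, 4610 to 9870 FPKM in Cre, 22144 to 22358 FPKM with NFIA added and 887 to 2241 FPKM with the mutant, against 90.4 to 128 FPKM in the 12 day 0 libraries. The sum of 9 markers of precursors and fibroblasts ran the other way at day 7. It was 1340 to 1469 FPKM in ctrl and 2354 to 2657 FPKM in Cre. With NFIA added it was 1048 to 1172 FPKM, and with the mutant 2580 to 3008 FPKM, which overlapped Cre. Singly, 6 of the 8 tested were higher in Cre than in ctrl (36.1% of all genes) and Dcn was lower, by -0.81 (22.7% of all genes). In the mutant against Cre 2 of 8 were higher (7.70% of all genes) and 0 lower (10.0%). Smooth muscle markers summed to 272 to 351 FPKM in ctrl and 342 to 408 FPKM in Cre. They summed to 150 to 181 FPKM with NFIA added and 437 to 536 FPKM with the mutant. Singly they were split, with 3 of 6 higher (36.1% of all genes) and 1 lower (22.7%) in Cre against ctrl. Myh11 changed against the sum, by -1.17 in Cre against ctrl and 0.64 with NFIA added to Cre. Markers of skeletal muscle, endothelium, immune cells and mesothelium each summed to at most 7.55 FPKM in any day 7 library. The part that the adipocyte content of the cultures takes in the results below was not tested. In bulk RNA, fewer adipocytes and less RNA per adipocyte cannot be told apart.

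At day 0 the summed FPKM of the 34 oxidation genes was nearly the same in the 4 cell types, from 809 to 866 FPKM over 12 libraries. By day 7 the ctrl libraries held 3576, 4132 and 4038 FPKM. The Cre libraries held 1748, 1996 and 1360.5 FPKM, so each of them lay below every ctrl library. In Cre + NFIA the sum was 4367, 4366 and 4312 FPKM, above each ctrl library. In Cre + NFIA Δpro#3 it was 889, 1052 and 1063 FPKM, below each Cre library and just above the day 0 range. Relative to the ctrl mean at day 7, the oxidation genes stood at 43.5% in Cre, 111% in Cre + NFIA and 25.6% in Cre + NFIA Δpro#3. The adipocyte markers stood at 29.5%, 87.7% and 6.78% in the same groups. Within the Cre group, replicate 2 had the highest value for 31 of the 34 genes and replicate 3 the lowest for 29, and the adipocyte marker sum was likewise highest in replicate 2 (9870.1 FPKM) and lowest in replicate 3 (4610 FPKM).

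**Figure D1:**
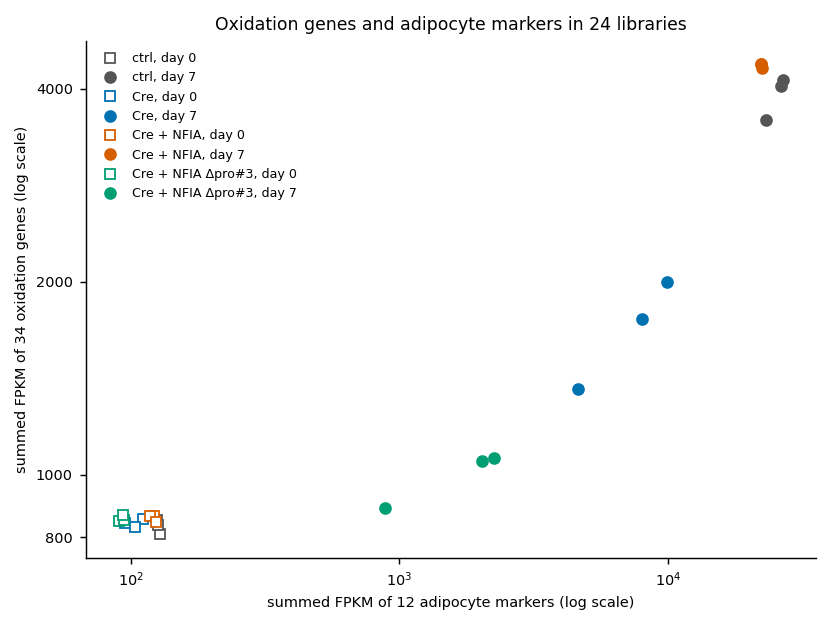
Summed FPKM of the 34 oxidation genes (vertical axis, log scale) against the summed FPKM of 12 adipocyte markers (horizontal axis, log scale) in each of the 24 libraries, with open squares for day 0 and filled circles for day 7. The day 0 libraries cluster at 809 to 866 FPKM of oxidation genes, and at day 7 the Cre + NFIA Δpro#3, Cre, ctrl and Cre + NFIA libraries lie above them in that order.

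33 of the 34 genes passed the filter on low values and were tested. The exception was Cpt1b, the muscle form of carnitine palmitoyltransferase 1, which had 1 to 28 reads per library and at most 0.69 FPKM. A gene was called at an adjusted p under 0.05 over the 12640 tested genes, and a stricter call asked in addition for a change of at least 3-fold, the threshold of the study. Fold changes are on the scale log2(FPKM + 1), which understates the change of genes near 1 FPKM.

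At day 7 most oxidation genes were lower in the libraries labelled Cre than in ctrl. In Cre against ctrl 29 of 33 members fell, where 22.7% of all genes tested fell, and 1 member (Acox3) was higher, where 36.1% of all genes were. The median change of the members was -1.19, beside 0.09 for all genes. 4 members (Ehhadh, Decr1, Scp2 and Pex11a) fell by at least 3-fold, against 1.27% of all genes. That last count hung on single libraries, being 7 without Cre replicate 2 and 0 without Cre replicate 3. With median-of-ratios scaling the median of all genes moved from 0.09 to -0.01, the split of all genes became 27.4% higher and 30.7% lower, and the member median was -1.32. All 11 tested adipocyte markers fell in the same comparison, with a median of -1.79.

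Most oxidation genes were higher where full-length NFIA had been added to Cre cells. In Cre + NFIA against Cre 29 of 33 members rose and 0 fell at day 7, where 27.0% of all genes rose and 35.9% fell (43.0% of the genes called were higher), and the median change was 1.32 beside -0.06 for all genes. With median-of-ratios scaling 33.3% of all genes rose and 29.4% fell (53.1% of the genes called were higher), and the member median was 1.42. 7 members (Cpt2, Acadl, Acadm, Acaa2, Eci1, Decr1 and Scp2) rose by at least 3-fold, against 2.13% of all genes, and 3 did so without Cre replicate 3. The adipocyte markers rose in 11 of 11 tested, with a median of 1.77. This comparison and the one before it share the Cre libraries, so values that are low in Cre enter both.

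Most oxidation genes were lower with the mutant, Cre + NFIA Δpro#3, than in Cre. In Cre + NFIA Δpro#3 against Cre 26 of 33 members fell and 0 rose, where 10.0% of all genes fell and 7.70% rose, and the median change was -0.71 beside 0.02 for all genes. No member reached a 3-fold fall, which 0.593% of all genes did. The adipocyte markers fell further, in 11 of 11 tested with a median of -2.08. Set directly against Cre + NFIA, the mutant had 30 of 33 members lower, where 28.9% of all genes were lower, and 23 lower by at least 3-fold, where 4.60% of all genes were. The median difference was -2.14, beside -3.77 for the adipocyte markers.

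Cre + NFIA and ctrl were close. 4 members were higher in Cre + NFIA (Cpt2, Acadm, Etfa and Amacr), where 8.81% of all genes were, and Ehhadh was lower, where 9.15% of all genes were. The median difference was 0.18. The higher count was 2 in 4 of the fits without 1 library (ctrl replicate 1, ctrl replicate 2, Cre + NFIA replicate 1 or Cre + NFIA replicate 3). The call of Amacr, 0.32 ± 0.10 (adjusted p = 0.045), was lost in 6 such fits (ctrl replicates 1 and 2, Cre replicate 3, Cre + NFIA replicates 1 and 3 or mutant replicate 1), with adjusted p from 0.0538 to 0.147, and also with median-of-ratios scaling, with quantile scaling and without a filter. Ranked by group mean at day 7, 20 of the 34 genes stood in the order Cre + NFIA, ctrl, Cre, Cre + NFIA Δpro#3, an order found in 15.97% of all genes tested. In 31 of the 34, both ctrl and Cre + NFIA exceeded Cre and Cre exceeded the mutant, against 23.96% of all genes tested. The 3 exceptions were Acox3, Amacr and Pecr, which are peroxisomal enzymes.

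**Figure D2:**
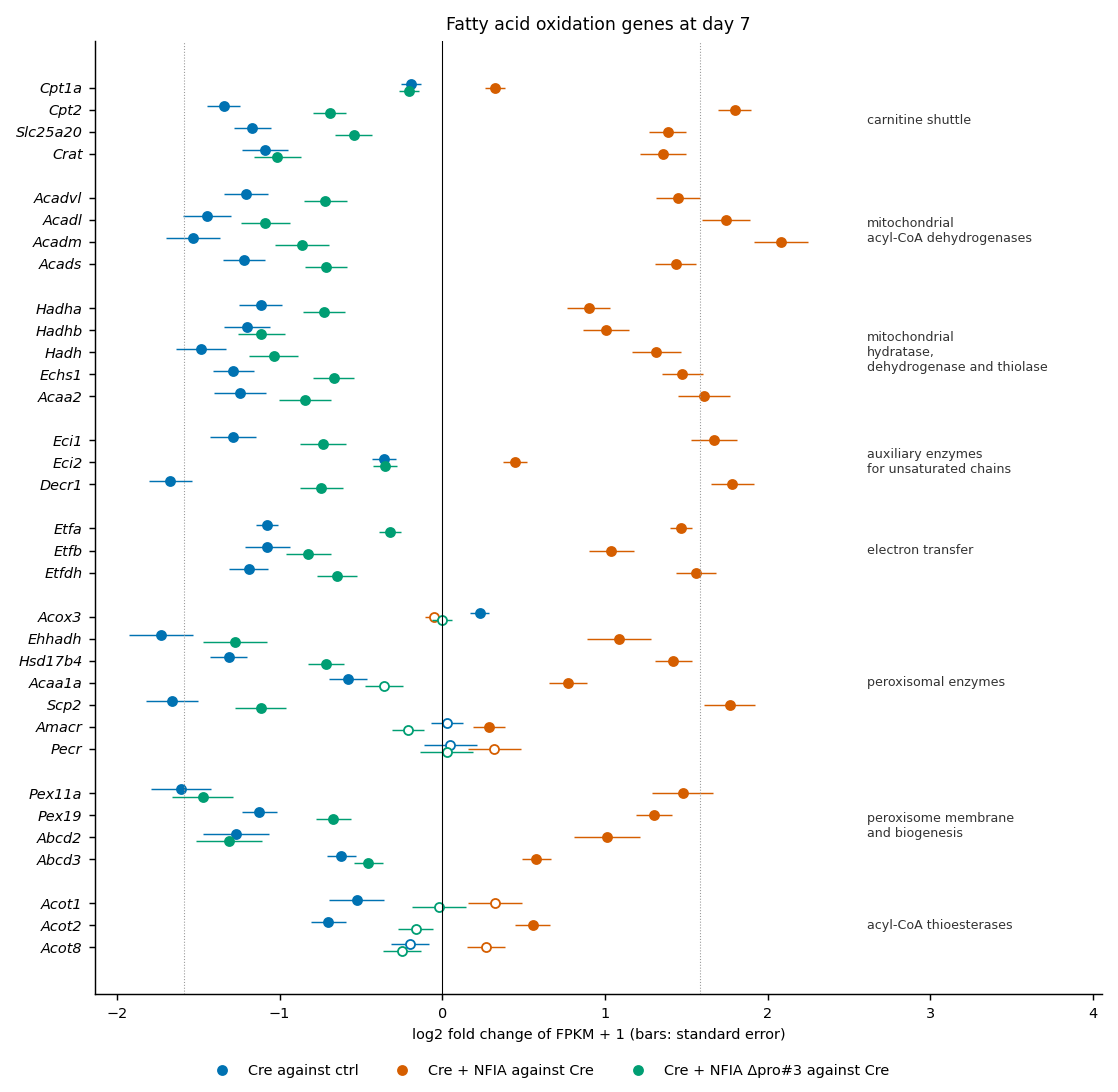
Log2 fold change of FPKM + 1 at day 7 (horizontal axis) for the 33 tested oxidation genes, grouped by role, in Cre against ctrl (blue), Cre + NFIA against Cre (orange) and Cre + NFIA Δpro#3 against Cre (green). Bars are standard errors, filled points passed an adjusted p of 0.05, open points did not, and dotted lines mark 3-fold; blue and green points lie mostly below 0 and orange points above it, while Acox3, Amacr, Pecr, Acot8 and Cpt1a are among the members that stay near 0.

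The carnitine shuttle comprised Cpt1a, Cpt1b, Cpt2, the carnitine/acylcarnitine carrier Slc25a20 and the carnitine acetyltransferase Crat. 4 of its 4 tested genes fell in Cre (22.7% of all genes), rose with NFIA (27.0%) and fell further with the mutant (10.0%). The changes were uneven. Cpt2 (mm9 chr4:107576586-107596215, minus strand), which re-forms acyl-CoA inside the inner membrane, read 53.6, 58.7 and 57.2 FPKM in ctrl at day 7. It read 22.2, 25.1 and 18.1 FPKM in Cre and 78.1, 76.9 and 78.0 FPKM in Cre + NFIA. In the mutant it read 11.8, 12.7 and 14.7 FPKM, which overlapped the day 0 ctrl values of 11.8, 12.8 and 11.9 FPKM. The 4 day 7 groups of Cpt2 did not overlap one another, and the change was -1.34 ± 0.10 in Cre against ctrl (SE, adjusted p = 1.2e-06), 1.80 ± 0.10 with NFIA added to Cre (adjusted p = 4.9e-08) and 0.45 ± 0.10 in Cre + NFIA against ctrl (adjusted p = 0.0099).

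Cpt1a (mm9 chr19:3323301-3385732, plus strand), the outer membrane enzyme that commits fatty acids to oxidation and is inhibited by malonyl-CoA, changed least in this group. It read 36.2, 35.5 and 39.1 FPKM in ctrl, 31.2, 33.9 and 31.6 FPKM in Cre, 41.0, 39.0 and 42.0 FPKM with NFIA added and 25.9, 27.7 and 29.8 FPKM in the mutant. The Cre values lay below all ctrl values, yet the fall was -0.19 ± 0.06 (adjusted p = 0.019), and it did not pass without ctrl replicate 3, Cre replicate 1 or Cre replicate 3 (adjusted p from 0.0554 to 0.0813). The fall in the mutant against Cre, -0.21 ± 0.06 (adjusted p = 0.039), failed in 7 fits without 1 library, among them each Cre replicate, Cre + NFIA replicates 1 and 3 and mutant replicates 1 and 2, with adjusted p from 0.052 to 0.154. Its rise in Cre + NFIA against Cre was 0.33 ± 0.06 (adjusted p = 0.00058). Slc25a20 and Crat moved nearly as far as Cpt2, by -1.17 and -1.09 in Cre against ctrl and by 1.39 and 1.36 in Cre + NFIA against Cre. The muscle form Cpt1b read 0.62, 0.36 and 0.69 FPKM in ctrl, 0.32, 0.45 and 0.19 FPKM in Cre, 0.46, 0.50 and 0.35 FPKM with NFIA added and 0.27, 0.20 and 0.30 FPKM in the mutant, from 6 to 28 reads each, and was not tested.

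NFI proteins bind TTGGC half-sites. The promoters of the shuttle pair were searched for the longer TTGGCA, because Cpt1a and Cpt2 differ so widely in response. Windows of 300 bases, from 250 before to 50 after a start of the gene in that table, were taken from RefSeq on build GRCm38.p6 for the 26 members that have one (27 windows). On either strand TTGGCA occurred in 3 of the 27 windows (11.1%), those of Cpt2, Eci2 and Cpt1a, and in 14.1% of 32851 windows of all genes. Neither a palindrome of TTGGC and GCCAA separated by 5 bases (0.0365% of all windows) nor a PPAR direct repeat of AGGTCA and AGGTCA separated by 1 base (0.0396%) nor the looser AGGNCA version of that repeat (0.381%) occurred in a member window on either strand. These are matches of letters within short windows. TTGGC without the final A was not counted in any window. Its reverse complement, GCCAA, also stands unmarked in the windows of Cpt1a and Cpt2 below. The sequences below read 5′ to 3′ along the gene, and capitals mark TTGGCA or its reverse complement. Each matched the mm9 assembly exactly and once, at chr4:107596145-107596444 (minus strand) for Cpt2, chr19:3323051-3323350 (plus strand) for Cpt1a and chr13:35085964-35086263 (minus strand) for Eci2. The window of Eci2 lies inside the gene as the mm9 annotation draws it (chr13:35069617-35118963), at another start than the outermost one.
Cpt2: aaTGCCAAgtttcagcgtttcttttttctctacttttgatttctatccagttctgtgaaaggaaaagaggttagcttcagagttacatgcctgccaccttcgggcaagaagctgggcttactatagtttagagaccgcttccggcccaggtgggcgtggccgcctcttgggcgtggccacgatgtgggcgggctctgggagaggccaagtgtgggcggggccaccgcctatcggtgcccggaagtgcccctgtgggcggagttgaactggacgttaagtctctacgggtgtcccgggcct
Cpt1a: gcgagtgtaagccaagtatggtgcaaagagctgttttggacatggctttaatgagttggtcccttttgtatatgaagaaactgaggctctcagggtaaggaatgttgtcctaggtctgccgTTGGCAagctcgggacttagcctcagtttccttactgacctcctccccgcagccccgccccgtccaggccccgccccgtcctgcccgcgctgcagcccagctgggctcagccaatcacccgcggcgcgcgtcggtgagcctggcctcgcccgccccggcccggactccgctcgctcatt
Eci2: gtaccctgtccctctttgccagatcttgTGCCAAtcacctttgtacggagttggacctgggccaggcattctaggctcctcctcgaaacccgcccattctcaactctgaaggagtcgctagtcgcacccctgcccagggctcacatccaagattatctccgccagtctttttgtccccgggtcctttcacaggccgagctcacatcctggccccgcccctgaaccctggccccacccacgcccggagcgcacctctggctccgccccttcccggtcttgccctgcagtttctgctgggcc
The capitals begin 248 bases before the start in Cpt2, 129 before it in Cpt1a and 222 before it in Eci2. Of the 3 genes that carry them, Cpt2 was among the 4 members with the largest rise in Cre + NFIA against Cre, whereas Cpt1a (0.33) and Eci2 (0.45 ± 0.07, adjusted p = 0.00021) were among those with a small rise.

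**Figure D3:**
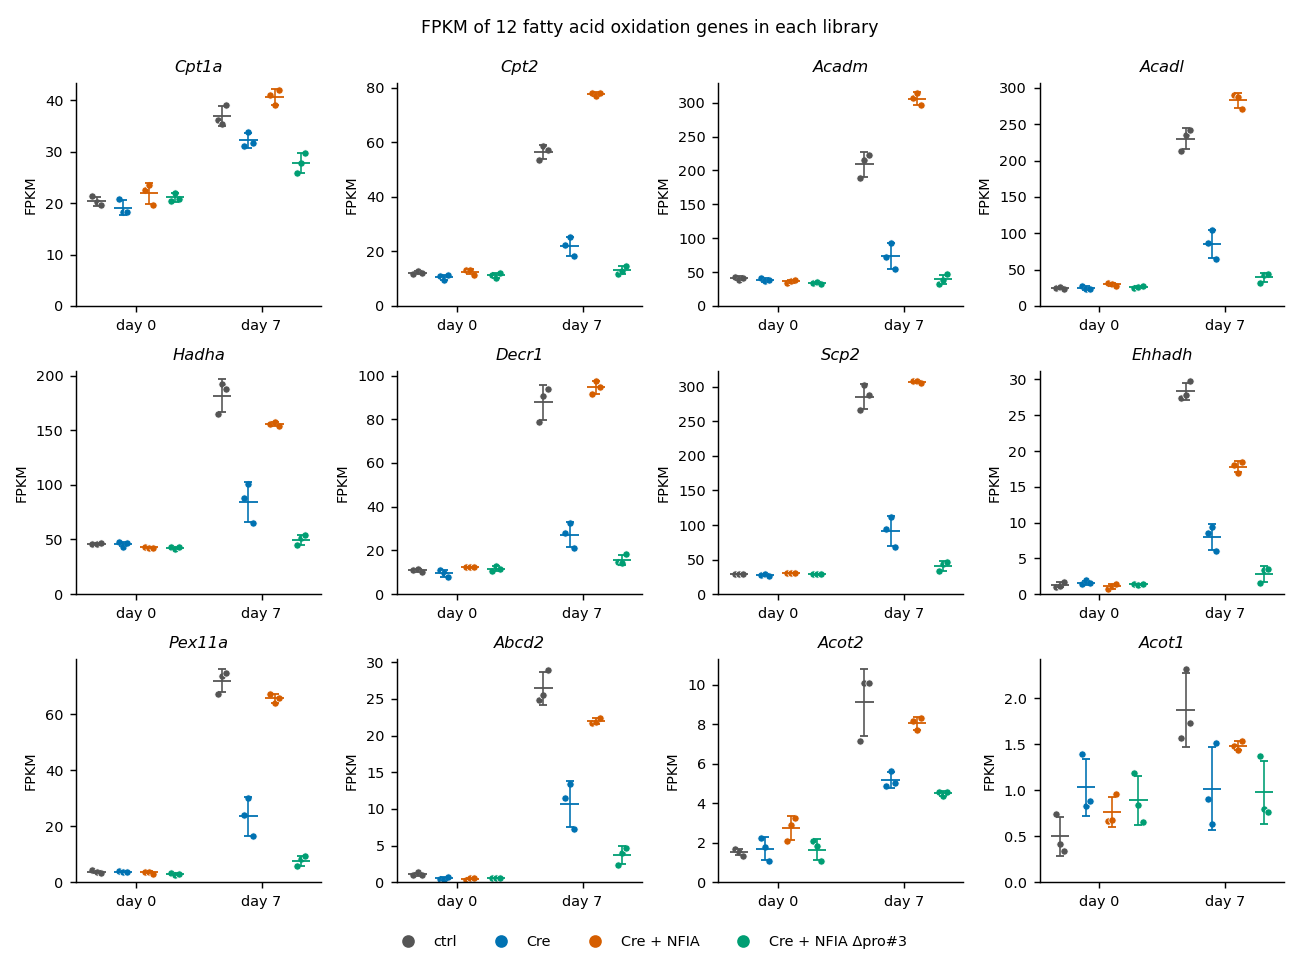
FPKM (vertical axis, from 0) of 12 oxidation genes in each library at day 0 and day 7, colored by cell type, with the group mean and SD as a line and bars (n = 3). At day 7 the gray (ctrl) and orange (Cre + NFIA) points stand above the blue (Cre) points, and the green (mutant) points lie lowest, except in Acot1, whose values overlap.

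The acyl-CoA dehydrogenases, which catalyze the first step for very long, long, medium and short chains, moved together. 4 of 4 fell in Cre (22.7% of all genes), rose with NFIA (27.0%) and fell in the mutant against Cre (10.0%). Acadm (mm9 chr3:153585321-153607596), the medium-chain enzyme, showed the largest response of any member to NFIA. It read 189, 215 and 223 FPKM in ctrl, 72.6, 92.5 and 54.1 FPKM in Cre, 308, 314 and 296 FPKM with NFIA added and 32.6, 38.4 and 46.6 FPKM in the mutant. The 4 groups did not overlap. Against Cre, Cre + NFIA was 2.08 ± 0.17 higher (adjusted p = 5.8e-07) and the mutant -0.86 ± 0.17 (adjusted p = 0.0042). Acadm was also higher in Cre + NFIA than in ctrl, by 0.55 ± 0.17 (adjusted p = 0.039), but that call was lost in 8 fits without 1 library (each ctrl and each Cre + NFIA replicate, Cre replicate 1 or mutant replicate 2), with adjusted p from 0.0512 to 0.128, and also without a filter and without the mean-variance trend (adjusted p from 0.0511 to 0.0902).

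Acadl (mm9 chr1:66877413-66909851), the long-chain enzyme, read 213, 236 and 241 FPKM in ctrl. It read 86.4, 104 and 65.0 FPKM in Cre and 290.4, 287 and 270.5 FPKM in Cre + NFIA. In the mutant it read 32.2, 42.0 and 43.5 FPKM. Each Cre + NFIA value exceeded each ctrl value, although the difference of 0.30 ± 0.15 did not pass (adjusted p = 0.19). Against ctrl Acadl fell by 1.45 in Cre (adjusted p = 7.6e-06), and against Cre it rose by 1.74 with NFIA (adjusted p = 1e-06) and stood at -1.09 in the mutant (adjusted p = 0.00078). Acadvl and Acads changed by -1.21 and -1.22 in Cre against ctrl and by 1.45 and 1.43 in Cre + NFIA against Cre.

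The next steps of the cycle are carried out by the trifunctional protein, encoded by Hadha and Hadhb, and by the soluble Echs1, Hadh and Acaa2. 5 of these 5 genes fell in Cre (22.7% of all genes), rose with NFIA (27.0%) and fell in the mutant against Cre (10.0%). Hadha (mm9 chr5:30444841-30481702, minus strand) and Hadhb (mm9 chr5:30481788-30511133, plus strand) lie head to head. Hadha read 164, 192 and 188 FPKM in ctrl, 87.6, 101 and 64.7 FPKM in Cre, 156, 158 and 154 FPKM with NFIA added and 44.8, 51.1 and 53.7 FPKM in the mutant. Cre + NFIA thus lay below each ctrl library for Hadha, opposite to the dehydrogenases, although the difference of -0.22 ± 0.13 did not pass (adjusted p = 0.29). Hadha changed by -1.12 ± 0.13 in Cre against ctrl (adjusted p = 2e-05) and by 0.90 ± 0.13 with NFIA added to Cre (adjusted p = 7.8e-05), the smallest rise of the 5. Its partner Hadhb changed by -1.20 and 1.01, and Hadh, the 3-hydroxyacyl-CoA dehydrogenase, by -1.48 and 1.32. The hydratase Echs1 and the thiolase Acaa2 changed by -1.28 and -1.25 in Cre against ctrl and by 1.48 and 1.61 in Cre + NFIA against Cre.

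Unsaturated chains need the isomerases Eci1 and Eci2 and the dienoyl-CoA reductase Decr1. 3 of 3 fell in Cre (22.7% of all genes), rose with NFIA (27.0%) and fell in the mutant against Cre (10.0%). Decr1 (mm9 chr4:15844387-15872654) read 78.7, 90.7 and 93.8 FPKM in ctrl, 27.9, 32.4 and 21.2 FPKM in Cre, 91.7, 97.6 and 94.6 FPKM with NFIA added and 14.5, 14.3 and 18.2 FPKM in the mutant. The ctrl and Cre + NFIA values overlapped. Decr1 changed by -1.67 ± 0.13 in Cre against ctrl (adjusted p = 1.5e-06) and by 1.78 ± 0.13 with NFIA added to Cre (adjusted p = 3.5e-07). Eci1 moved almost as far (-1.29 and 1.67), while Eci2 changed by -0.36 and 0.45. The genes of electron transfer, Etfa and Etfb for the flavoprotein and Etfdh for its ubiquinone oxidoreductase, fell in 3 of 3 cases in Cre by 1.07 to 1.19 (22.7% of all genes fell). They rose by 1.04 to 1.56 with NFIA, and Etfa was 0.39 ± 0.07 above ctrl in Cre + NFIA (adjusted p = 0.0024), a call that held in each fit without 1 library.

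Of the 7 peroxisomal enzymes 4 fell in Cre (Ehhadh, Hsd17b4, Acaa1a and Scp2), where 22.7% of all genes fell. 1 was higher, where 36.1% of all genes were. Ehhadh (mm9 chr16:21761360-21787917), the L-bifunctional enzyme and a classical target of PPARα, read 27.5, 27.8 and 29.7 FPKM in ctrl, 8.48, 9.44 and 6.02 FPKM in Cre, 18.0, 17.0 and 18.5 FPKM with NFIA added and 1.51, 3.35 and 3.51 FPKM in the mutant. All 4 groups were apart, and in contrast to most members the Cre + NFIA values lay midway between Cre and ctrl. It showed the largest fall of any member in Cre against ctrl, -1.73 ± 0.20 (adjusted p = 1.7e-05). Its changes against Cre were 1.09 ± 0.20 with NFIA (adjusted p = 0.00045) and -1.27 ± 0.20 in the mutant (adjusted p = 0.0014). Against ctrl, Ehhadh was lower in Cre + NFIA by -0.64 ± 0.20 (adjusted p = 0.043), and that call was lost without any one of the 3 ctrl or 3 Cre + NFIA replicates or Cre replicate 1 (adjusted p from 0.0587 to 0.123), and also with a pseudocount of 0.1 (adjusted p = 0.0974) and without a filter (adjusted p = 0.0965).

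Scp2 (mm9 chr4:107716444-107817603), the peroxisomal thiolase and sterol carrier, read 266, 303 and 288 FPKM in ctrl, 94.4, 112 and 67.9 FPKM in Cre, 308, 308 and 306 FPKM with NFIA added and 33.0, 44.2 and 46.4 FPKM in the mutant. It changed by -1.66 ± 0.16 in Cre against ctrl (adjusted p = 4.6e-06), by 1.77 ± 0.16 with NFIA added to Cre (adjusted p = 1.5e-06) and by -1.12 ± 0.16 in the mutant against Cre (adjusted p = 0.00089). The D-bifunctional enzyme Hsd17b4 changed by -1.31, 1.42 and -0.71 in the same comparisons. The thiolase Acaa1a changed by -0.58, 0.77 and -0.36, of which the last did not pass (adjusted p = 0.054). Acaa1a has a near-identical copy, Acaa1b. The authors' alignment kept only reads that matched a single place, so reads fitting both copies would be lost and both values are uncertain.

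The 3 other peroxisomal enzymes differed little between the day 7 groups. Acox3, an oxidase of branched-chain acids, stood at 9.07 ± 0.56 FPKM in ctrl, 10.8 ± 0.17 FPKM in Cre, 10.4 ± 0.60 FPKM with NFIA added and 10.8 ± 0.21 FPKM in the mutant (SD, n = 3 each). Its rise of 0.23 ± 0.06 in Cre against ctrl (adjusted p = 0.0058) was 0.11 with median-of-ratios scaling (adjusted p = 0.13) and 0.11 with quantile scaling (adjusted p = 0.16). The racemase Amacr changed by 0.03 in Cre against ctrl (adjusted p = 0.81) and by 0.29 ± 0.10 with NFIA added to Cre (adjusted p = 0.024), a call lost without Cre replicate 1 or 3 or Cre + NFIA replicate 1 or 3 (adjusted p from 0.0627 to 0.0965). The reductase Pecr stood between 7.20 and 9.54 FPKM on average and passed in none of the 5 day 7 comparisons by limma, with adjusted p from 0.11 to 0.93.

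Among genes of the peroxisomal membrane and of peroxisome formation, 4 of 4 fell in Cre, rose with NFIA and fell in the mutant against Cre. The shares of all genes were 22.7%, 27.0% and 10.0%. Pex11a (mm9 chr7:86880843-86888017), which promotes peroxisome division, read 67.3, 73.7 and 74.9 FPKM in ctrl, 24.2, 30.3 and 16.4 FPKM in Cre, 67.3, 64.0 and 65.8 FPKM with NFIA added and 5.76, 8.30 and 9.22 FPKM in the mutant. Cre and the mutant were clear of ctrl and of each other, and ctrl met Cre + NFIA at 67.3 FPKM. Pex11a changed by -1.61 ± 0.19 in Cre against ctrl (adjusted p = 1.8e-05) and by 1.48 ± 0.19 with NFIA added to Cre (adjusted p = 2.4e-05). Its fall of -1.47 ± 0.19 in the mutant against Cre was the largest of any member (adjusted p = 0.0006).

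Abcd2 (mm9 chr15:90976315-91022238), a transporter of very long-chain acyl-CoA, read 24.8, 25.5 and 29.0 FPKM in ctrl, whereas Cre had 11.5, 13.4 and 7.22 FPKM. It read 21.7, 21.9 and 22.4 FPKM in Cre + NFIA, below each ctrl value, and 2.39, 3.96 and 4.74 FPKM in the mutant. The changes were -1.27 ± 0.20 in Cre against ctrl (adjusted p = 0.00021), 1.01 ± 0.20 with NFIA added to Cre (adjusted p = 0.00092) and -1.31 ± 0.20 in the mutant against Cre (adjusted p = 0.0014). The related transporter Abcd3 changed by -0.62, 0.58 and -0.45, and Pex19, the import receptor for peroxisomal membrane proteins, by -1.12, 1.30 and -0.67.

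The thioesterases, which release free fatty acids from acyl-CoA, had the smallest median change of the role groups on the log2(FPKM + 1) scale in each comparison that follows. The medians were -0.52 in Cre against ctrl, 0.32 with NFIA added to Cre and -0.16 in the mutant against Cre. The first is the value of Acot1, which this scale understates. As ratios of mean FPKM, Cre stood at 54.3% of ctrl for Acot1, 56.7% for Acot2 and 86.4% for Acot8. Acaa1a, in the middle of the 7 peroxisomal enzymes, stood at 66.8%, so the ranking in Cre against ctrl depended on the scale. 2 of 3 fell in Cre (22.7% of all genes) and 1 of 3 rose with NFIA (27.0% of all genes). In the mutant against Cre 0 of 3 passed, where 10.0% of all genes fell and 7.70% rose. Acot2 (mm9 chr12:85328811-85334823), the mitochondrial form, read 7.15, 10.1 and 10.1 FPKM in ctrl, 4.86, 5.62 and 5.03 FPKM in Cre, 8.16, 7.70 and 8.34 FPKM with NFIA added and 4.56, 4.36 and 4.59 FPKM in the mutant. It changed by -0.70 ± 0.11 in Cre against ctrl (adjusted p = 0.00015), by 0.56 ± 0.11 with NFIA added to Cre (adjusted p = 0.00069) and by -0.16 ± 0.11 in the mutant against Cre (adjusted p = 0.35). Acot1 (mm9 chr12:85350448-85358621), its cytosolic neighbour, was near 1 FPKM, at 1.57, 2.32 and 1.73 FPKM in ctrl, 0.91, 0.63 and 1.51 FPKM in Cre, 1.48, 1.44 and 1.54 FPKM with NFIA added and 1.38, 0.80 and 0.76 FPKM in the mutant. Its fall of -0.52 ± 0.17 in Cre against ctrl (adjusted p = 0.018) did not pass without ctrl replicate 2, Cre replicate 1 or Cre replicate 2 (adjusted p from 0.0524 to 0.0769). Acot1 and Acot2 are near-identical copies. The authors' alignment kept only reads that matched a single place, so reads fitting both copies would be lost and both values are uncertain. The peroxisomal Acot8 averaged 13.0 ± 0.86 FPKM in ctrl against 11.2 ± 1.3 FPKM in Cre (SD, n = 3 each), a difference that did not pass (adjusted p = 0.16).

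Before differentiation few members differed. In Cre against ctrl at day 0, Etfb was 0.38 ± 0.08 higher (adjusted p = 0.032) and Abcd2 -0.44 ± 0.11 lower (adjusted p = 0.0496), where 1.63% of all genes were higher and 1.70% lower (0.973% and 1.63% with quantile scaling). Neither call held in each fit without 1 library: Etfb was lost in 6 (ctrl replicate 2, Cre replicates 2 and 3, Cre + NFIA replicates 2 and 3 or mutant replicate 3) and Abcd2 in 11 of the 12, all but the one without Cre replicate 3. In Cre + NFIA against Cre at day 0, 6 members were higher (Acadl, Echs1, Eci1, Decr1, Etfa and Scp2), where 14.7% of all genes were, and 3 were lower (Eci2, Pex19 and Abcd3), where 12.9% of all genes were. The differences were small, from -0.23 to 0.41, and 4 of the 9 (Echs1, Eci1, Etfa and Pex19) kept their call in each fit without 1 library. The count of higher members was 3 without Cre + NFIA replicate 2. In the mutant against Cre, Echs1, Eci1 and Etfa were higher by 0.28 to 0.31, where 9.26% of all genes were higher, and 0 members were lower. That call of Etfa was lost without Cre replicate 2 or 3 or mutant replicate 2 or 3 (limma, adjusted p from 0.0576 to 0.0717). It was also lost with quantile scaling (limma, adjusted p = 0.0531). The median difference of the members was 0.00 in Cre + NFIA against Cre and -0.02 in the mutant against Cre.

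Most oxidation genes were higher after differentiation in ctrl, Cre and Cre + NFIA, whereas in the mutant 16 of 33 passed as higher and 14 did not pass. In ctrl, 31 of 33 members were higher at day 7 than at day 0 (32.9% of all genes) and 1, Acox3, was lower (38.1% of all genes). 24 rose by at least 3-fold, against 5.64% of all genes, and the median change was 2.03. In Cre + NFIA 31 of 33 members rose (31.8% of all genes), Acox3 was lower (38.3% of all genes), 23 rose by at least 3-fold (5.78% of all genes) and the median was 2.32. In Cre 28 members rose (30.0% of all genes), Acox3 was lower (21.6% of all genes), 6 rose by at least 3-fold (2.26% of all genes) and the median was 0.94. In the mutant 16 members rose (24.5% of all genes), 3 were lower (Acox3, Echs1 and Acaa1a, where 17.0% of all genes were lower), none reached 3-fold (1.14% of all genes) and the median was 0.22. The fall of Acox3 in Cre + NFIA, -0.13 (adjusted p = 0.046), was -0.06 with median-of-ratios scaling (adjusted p = 0.36). With quantile scaling the split of all genes was 22.7% higher and 29.8% lower in Cre, and 19.1% higher and 20.7% lower in the mutant.

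Pex11a, Abcd2 and Ehhadh showed the largest rises of any member in ctrl, while Pex19 and Abcd3 of the same peroxisomal membrane group rose by 1.91 and 0.97. Pex11a went from 4.26, 3.57 and 3.33 FPKM at day 0 to 67.3, 73.7 and 74.9 FPKM at day 7 in ctrl, a change of 3.95 ± 0.16 (adjusted p = 6.4e-15). The rise of Pex11a was 2.35 in Cre, 3.88 in Cre + NFIA and 1.15 in the mutant. Abcd2 went from 1.00, 1.36 and 0.96 FPKM to its day 7 level in ctrl, by 3.71 ± 0.17, and by 2.88 in Cre, 3.97 in Cre + NFIA and 1.55 in the mutant. Near 1 FPKM this scale understates the rise. As ratios of mean FPKM, Abcd2 rose 23.9-fold in ctrl, 19.3-fold in Cre, 46.8-fold in Cre + NFIA and 6.48-fold in the mutant. Ehhadh went from 1.06, 1.20 and 1.68 FPKM in ctrl by 3.67 ± 0.18, and by 1.77, 3.17 and 0.61 in the other cell types; the last call was lost without mutant day 7 replicate 2 or 3 (adjusted p of 0.0522 and 0.0648).

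Among the mitochondrial genes Acadl rose most in ctrl, whereas Acaa2 rose more than Acadl in Cre (1.75), Cre + NFIA (3.30) and the mutant (0.84). Acadl went from 24.5, 25.8 and 22.9 FPKM at day 0 to above 210 FPKM at day 7 in ctrl. Acadl changed by 3.19 ± 0.13 in ctrl, 1.72 in Cre, 3.20 in Cre + NFIA and 0.55 in the mutant. Cpt2 changed by 2.13, 0.97, 2.54 and 0.19 in that order of cell types, of which the last did not pass (adjusted p = 0.11), and Acadm by 2.32, 0.88, 3.03 and 0.19 (adjusted p = 0.26 for the last). Cpt1a changed by 0.83, 0.73, 0.87 and 0.38, so that its rise in the mutant exceeded that of Cpt2 and Acadm, although it was smaller than theirs in the 3 other cell types. Hadha changed by 1.96, 0.84, 1.84 and 0.22, of which the last did not pass, and Decr1 by 2.91, 1.42, 2.84 and 0.40. The call of Decr1 in the mutant was lost without mutant day 0 replicate 1 or day 7 replicate 3 (adjusted p of 0.0611 and 0.0842). Acot2 rose by 1.99 in ctrl, 1.22 in Cre, 1.29 in Cre + NFIA and 1.07 in the mutant.

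**Figure D4:**
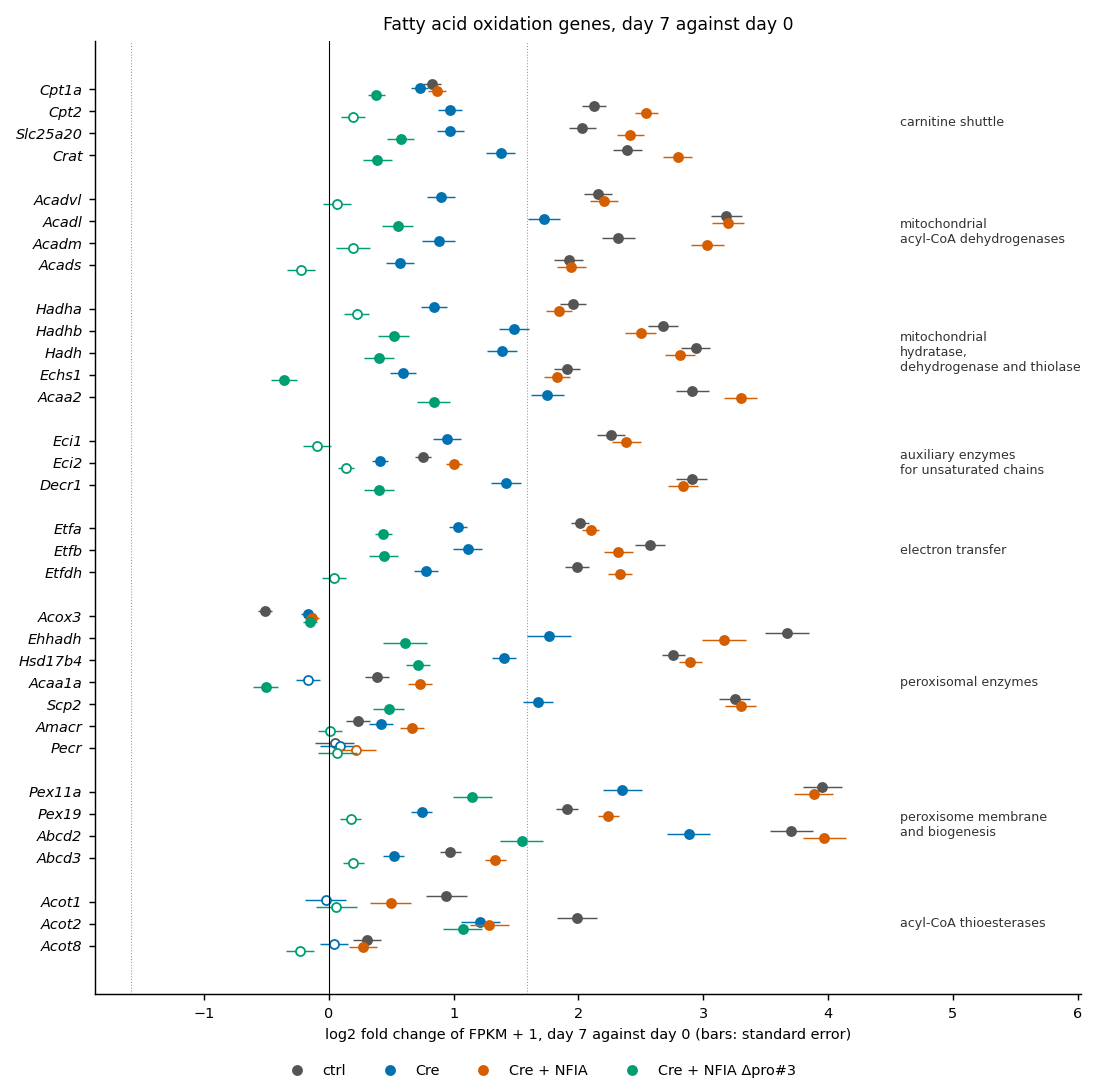
Log2 fold change of FPKM + 1 from day 0 to day 7 (horizontal axis) for the 33 tested oxidation genes, grouped by role, in ctrl (gray), Cre (blue), Cre + NFIA (orange) and Cre + NFIA Δpro#3 (green). Bars are standard errors, filled points passed an adjusted p of 0.05 and dotted lines mark 3-fold; gray and orange points lie furthest to the right in most genes, blue points lie between, and green points lie nearest to 0 in most genes, with member medians of 2.03, 2.32, 0.94 and 0.22.

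Whether the differences between cell types depended on differentiation was tested in a model of both days. In Cre against ctrl the difference was lower at day 7 than at day 0 for 28 of 33 members, where 19.5% of all genes were, and higher for Acox3, where 29.7% of all genes were. In Cre + NFIA against Cre it was higher at day 7 for 26 members, where 18.8% of all genes were, and in the mutant against Cre it was lower for 25 members, where 10.4% of all genes were. The member medians were -1.16, 1.31 and -0.69. In Cre against ctrl Abcd2 lost its call with a pseudocount of 0.1 and with voom (limma, adjusted p from 0.33 to 0.61). In Cre + NFIA against Cre it lost its call with voom (limma, adjusted p = 0.073). With another scaling the split of all genes moved, to 22.9% higher and 25.3% lower for Cre against ctrl and 24.8% higher and 23.2% lower where NFIA was added (both median-of-ratios), and to 10.2% higher and 8.90% lower for the mutant against Cre (quantile). These comparisons share the day 7 libraries with those above and repeat part of the same information.

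Other genes of the pathway were followed in 59 tested of 68 listed. In Cre against ctrl at day 7, 40 fell (22.7% of all genes) and 5 rose (36.1% of all genes). In Cre + NFIA against Cre 46 rose (27.0% of all genes) and 5 fell (35.9% of all genes). In the mutant against Cre 27 fell (10.0% of all genes) and 2 rose (7.70% of all genes). Acsl1, which activates long-chain acids to acyl-CoA, changed by -1.49, 1.19 and -2.08 in the 3 comparisons.

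Against those shares of all genes, 7 of 9 tested regulators fell and 0 rose in Cre, 7 rose and 1 (Rxra, by -0.17) fell with NFIA, and 4 fell and 1 (Ppard, by 0.26) rose in the mutant against Cre. Pparg, the nuclear receptor that directs adipogenesis, changed by -1.21 in Cre against ctrl (adjusted p = 0.00016), 1.41 with NFIA added to Cre (adjusted p = 3.6e-05) and -1.23 in the mutant against Cre (adjusted p = 0.0012). Ppara, its relative known for control of β-oxidation, changed by -1.01 (adjusted p = 2.2e-05) and 1.82 (adjusted p = 1.4e-07), and the mutant differed from Cre by -0.17 (adjusted p = 0.37). The coactivator Ppargc1a changed by -0.87 (adjusted p = 7.7e-05) and 2.36 (adjusted p = 2.7e-08), and the mutant differed from Cre by -0.21 (adjusted p = 0.28). Both were above ctrl in Cre + NFIA, Ppara by 0.81 (adjusted p = 0.00082) and Ppargc1a by 1.497 (adjusted p = 1.2e-05). At day 7 Ppara had 136 to 283 reads per library in ctrl, 34 to 69 in Cre and 27 to 44 in the mutant. Ppargc1a had 92 to 158 reads in ctrl, 12 to 42 in Cre and 7 to 16 in the mutant. At levels this low log2(FPKM + 1) understates changes, so the values of these genes cannot be ranked against those of Pparg. The coactivator Ppargc1b changed by -1.20, 0.72 and -1.34, and the estrogen-related receptor Esrra by -0.59, 0.60 and -0.27 (adjusted p = 0.096 for the last).

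The largest changes among the other genes included Rxrg, a partner of the PPARs (-2.21 in Cre against ctrl and 2.52 in Cre + NFIA against Cre), and the thiolase copy Acaa1b (-2.99 and 3.59), whose reads are uncertain as said above. Rxrg had only 39, 38 and 3 reads in the Cre libraries at day 7, against 221, 221 and 250 in ctrl. Its Cre replicates thus disagreed, and the size of its changes is imprecise. The fatty acid transport protein Slc27a1 fell by 1.82 in Cre and rose by 1.07 with NFIA. Cpt1c, the form of carnitine palmitoyltransferase 1 best known from neurons, was singled out after its values were seen because it went against the members. It rose by 0.90 in Cre against ctrl (adjusted p = 1e-06) and fell by 1.46 with NFIA added to Cre (adjusted p = 1.3e-08).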

How the data were processed

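RNA-seq of polyA RNA (TruSeq Stranded mRNA) was analysed in 24 libraries, 3 for each of 4 cell types at day 0 and day 7. The authors aligned reads with STAR (2.5.3a, mm9, per the labels), counted them per gene on the matching strand and deposited FPKM, so the deposited unit is FPKM. The values times gene length gave whole reads for 100% of values (tolerance 0.05 reads), 7732829 to 14622189 per library. Counting error is not the spread between cultures. Replicate pairs differed beyond sampling noise (chi-square per degree of freedom 2.17 to 15.1 over 24 pairs), so no library was counted as a duplicate. Columns of other samples: 0.

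Values were tested as log2(FPKM + 1) for genes with at least 1 FPKM in at least 3 libraries (12640 genes), with limma 3.58.1 in R 4.3.3 using a mean-variance trend, two-sided, with Benjamini-Hochberg adjustment over the tested genes. The 4 cell types of a day shared 1 model, and changes between days used all 24 libraries. The code was tested on simulated data. Alternatives were other pseudocounts, filters, scalings, models, a replicate block, each library left out and limma voom on the recovered reads, which called 4601 genes higher and 2842 lower in Cre against ctrl at day 7 (4563 and 2867 on FPKM). The members, lists and tests were chosen with earlier results of these data known. Values in every library were given for 10 genes chosen by role and for the 4 members with the largest called change at day 7 of Cre relative to ctrl and of each NFIA form relative to Cre. Other pathway genes were named from a list of 7, of which 1 is not reported here, and up to 3 with the largest called change. Positions are from the mm9 annotation.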

Additional observations from a re-analysis of the deposited data

Results flagged for a closer look

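For many members the contrast between cell types was not the same at day 7 as at day 0, by the interaction term of limma. In Cre against ctrl it did so for 29 members, 28 of them lower (19.5% of all genes) and 1 higher (29.7% of all genes), with the largest value for Ehhadh, at -1.91 on the log2 scale. In Cre + NFIA against Cre it did so for 26 members, higher in each (18.8% of all genes), with the largest value for Acadm, at 2.15. In Cre + NFIA Δpro#3 against Cre it did so for 25 members, lower in each (10.4% of all genes), with the largest value for Abcd2, at -1.34. The call of Abcd2 in Cre against ctrl was lost with a pseudocount of 0.1 and with voom, and that in Cre + NFIA against Cre with voom. The adipocyte marker sum lay at 90.4 to 128 FPKM in the day 0 libraries and differed between the cell types at day 7, and its part in these values was not tested.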

How the results depend on the processing

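Of 599 alternative counts of members, 560 stayed within 1.5 times the reported count. Of 1370 alternative values of named members, 1325 kept their call or their lack of one, 37 lost the call and 8 gained it. The sign turned in 0 cases where either value passed, and turns between values that did not pass were not counted. Members lower by 3-fold in Cre against ctrl at day 7 numbered 1 with a pseudocount of 5, 1 with quantile scaling and 23 at 2-fold, and 0 to 7 with 1 library left out. Members higher by 3-fold in Cre + NFIA against Cre numbered 3 with quantile scaling, 22 at 2-fold and 3 to 10 with 1 library left out. Members higher in Cre + NFIA than in ctrl numbered 10 with only the compared groups in the model, 7 in 1 model of 24 libraries, 8 with voom and 2 to 6 with 1 library left out. At day 0, members higher in Cre + NFIA against Cre numbered 3 with only the compared groups and 3 to 7 with 1 library left out, and those higher in the mutant against Cre numbered 1 in 1 model of 24 libraries. Members called either way in Cre against ctrl at day 0 numbered 1 with a pseudocount of 0.1, median-of-ratios or quantile scaling, 0 without a filter, with only the compared groups or in 1 model of 24 libraries, and 0 to 1 with 1 library left out. Members higher by 3-fold at day 7 than at day 0 in Cre numbered 1 with a pseudocount of 5, 14 at 2-fold and 4 to 7 with 1 library left out. The cause of these shifts was not tested. The deviations of same-numbered replicates from their group means had correlations of -0.27 to 0.20. With 3 libraries per group these cannot tell whether same-numbered libraries shared a culture or a batch. With the replicate number as a block, members lower in Cre against ctrl at day 7 numbered 29 and higher in Cre + NFIA against Cre 29, and those called in Cre against ctrl at day 0 numbered 0. Of the 5 members called in Cre + NFIA against ctrl, 3 kept their call with the block, which Amacr and Ehhadh (adjusted p = 0.0528) lost. Genes near 1 FPKM, Acot1 and Cpt1b among the members, had few reads, which limits their precision.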
